A study of Arabidopsis thaliana with 9 samples.

Results

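Evenly expressed lincRNAs of Arabidopsis thaliana are described here: long intergenic non-coding RNAs whose signal was much the same in inflorescences, leaves and roots. A lincRNA was taken as one when its brightest probe was well above background on all 9 arrays and the highest and lowest of its 3 organ means differed by less than 0.5 on the log2 scale in the authors' deposited table of the whole series. This gave 103 lincRNAs out of 402 that were well above background on all 9 arrays, and out of 4499 lincRNAs on the array. The organ means chose them, so their organ differences below are a description and support nothing. RNA from 3 organs of wild-type Col-0 plants was hybridised to 9 one-colour Agilent arrays, with 3 biological replicates per organ. The inflorescences, with open flowers, buds and some very young siliques, came from plants aged 4 weeks, while the leaves and roots came from plants aged 30 days that were raised hydroponically in MGRL medium. The growth protocol in the labels also names solid MS medium or a greenhouse, kept at 22 °C under 16 h light and 8 h dark. Organ, age and growth medium therefore cannot be told apart between inflorescences and the other organs. The organs were whole-tissue samples, in which fewer cells holding an RNA and less RNA per cell cannot be told apart.

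LincRNAs are transcripts that lie between protein-coding genes and hold no long open reading frame. Many plant lincRNAs are weakly transcribed and are known for being confined to particular organs or stress conditions, and some serve as decoys for microRNAs, as precursors of small RNAs or as guides of chromatin complexes. Genes with a level signal across organs are commonly sought as internal references. The names of the 103 lincRNAs (such as AT2TU000020) give a chromosome and a running number along it, and the files used here pair none of them with a gene symbol or a function.

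The percentage of gene probes well above background was 36.1 to 39.9 on 5 arrays, 24.1 to 25.1 on 3 arrays and 10.7 on the array of leaf replicate 2. The 3 arrays in the middle range were replicate 3 of each organ. Per the file headers, these lay on a second slide, while replicates 1 and 2 of each organ lay on the first slide. A slide difference below therefore cannot be told apart from a difference of the replicate 3 samples themselves. Of the marker genes looked for, 0 of 7 green tissue genes, 0 of 6 flower genes, 0 of 4 pollen and anther genes, 0 of 8 root genes and 0 of 3 meristem genes were on the array, so the organ labels could be checked only with 2 cold-regulated genes for chloroplast proteins. COR15A averaged 15.08 in leaf, 12.17 in inflorescence and 3.43 in root on the log2 scale of the deposited table, and COR15B averaged 17.40, 14.68 and 6.39. Both genes were lowest in the root samples. LAT52, listed with the pollen and anther genes, matched no locus, so its absence was not established. None of the 9 protein-coding genes commonly used as references was on the array.

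Signals of the 103 lincRNAs spanned most of the scale of the array. The mean over 9 arrays ran from 4.56 to 17.96 in log2 units of the deposited table, with a median of 6.05 and quartiles of 5.40 and 8.11. The other 299 lincRNAs above background on all 9 arrays had a median of 6.21. Each signal depends on its probe, so signals of different lincRNAs are not compared as amounts of RNA. The median over the 103 lincRNAs was 6.16, 6.19 and 5.84 on the 3 inflorescence arrays. It was 6.32, 6.37 and 5.95 on the leaf arrays and 6.18, 6.31 and 5.78 on the root arrays. In each organ the lowest of the 3 medians was that of replicate 3, on slide 2.

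**Figure D1:**
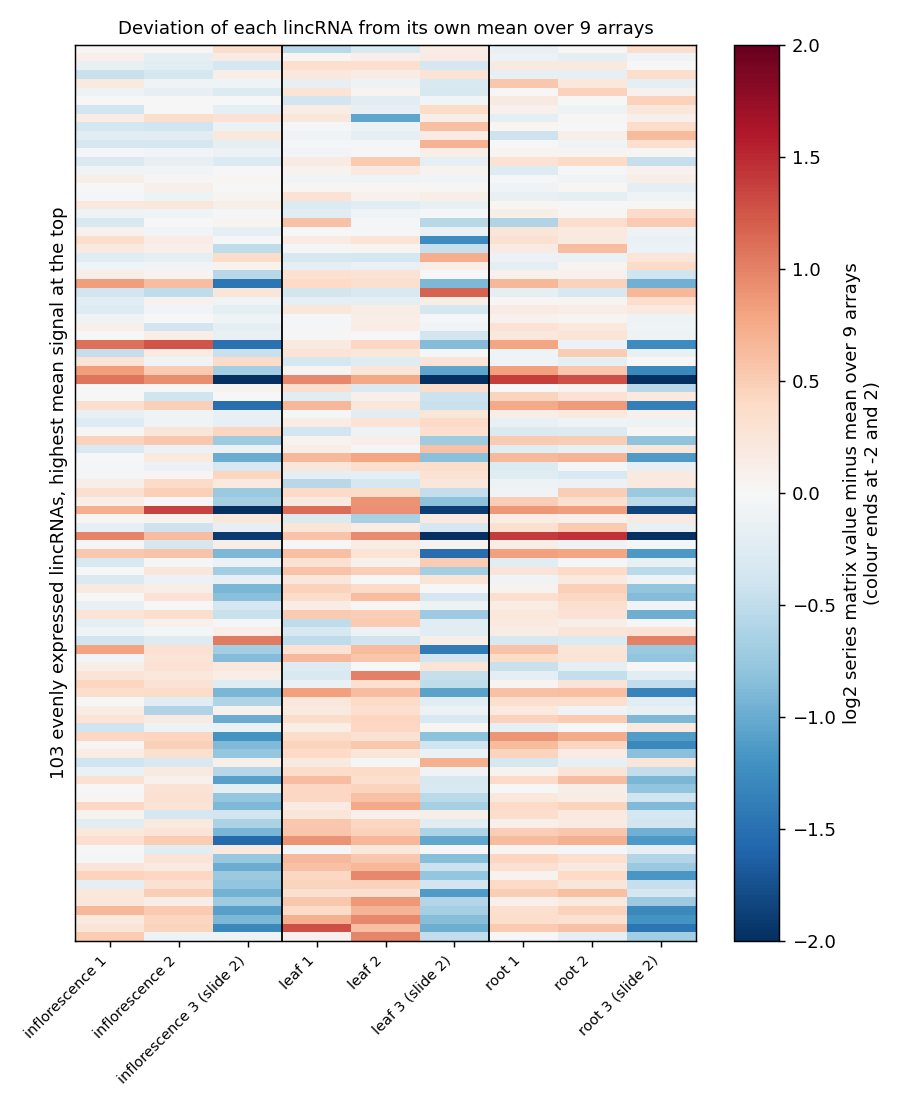
Heat map of the 103 evenly expressed lincRNAs (rows, highest mean signal at the top) on the 9 arrays (columns, grouped by organ), where colour gives the log2 value of the deposited table minus the mean of that lincRNA over 9 arrays and ends at -2 and 2. The replicate 3 columns, on slide 2, are bluer than the others for many lincRNAs in the lower part, whose mean signal was under 6.

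The brightest of them was AT2TU000020 on chromosome 2. Its values in the deposited table were 18.01, 18.01 and 18.31 in inflorescence, 17.42, 17.66 and 18.12 in leaf, and 17.82, 18.01 and 18.31 in root. The organs overlapped, and the value 18.31 was shared by 2 arrays of slide 2, one of inflorescence and one of root. On the scaled scanner signal, which is the log2 processed signal minus the 75th percentile of the probes above background on every array, its organ means spanned 0.13, against 0.38 in the deposited table. AT3TU078950, the brightest on chromosome 3, measured 13.78, 13.47 and 13.83 in inflorescence, 13.70, 13.78 and 13.83 in leaf, and 13.55, 13.47 and 13.60 in root. All 9 arrays lay within 0.36 of each other and the organs overlapped.

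AT2TU032980 measured 13.11, 13.06 and 12.91 in inflorescence, 13.60, 13.60 and 12.93 in leaf, and 13.45, 13.45 and 13.28 in root. The 3 inflorescence arrays lay below all root arrays, and leaf replicate 3 fell among the inflorescence values. On the scaled signal the organ means of AT2TU032980 spanned 0.71, past the limit of the rule and the largest of the 103. AT4TU003010, the brightest on chromosome 4, measured 10.77, 10.86 and 11.35 in inflorescence, 11.44, 11.37 and 11.50 in leaf, and 11.06, 11.06 and 11.58 in root. Leaf lay above inflorescence on every array, by a small margin against inflorescence replicate 3, while root overlapped both. AT4TU002560 measured 11.16, 10.89 and 10.88 in inflorescence, 10.80, 10.87 and 10.66 in leaf, and 11.50, 11.18 and 10.78 in root. Here root replicates 1 and 2 were the highest of the 9 arrays and root replicate 3 lay among the leaf values.

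AT1TU021120, the brightest on chromosome 1, measured 10.83, 10.77 and 10.66 in inflorescence, 11.20, 10.99 and 10.62 in leaf, and 10.94, 11.39 and 11.02 in root. Root lay above inflorescence on every array, and leaf overlapped both. AT5TU036490, the brightest on chromosome 5, measured 10.36, 10.36 and 10.34 in inflorescence, 9.99, 10.13 and 10.30 in leaf, and 10.54, 10.34 and 10.82 in root. Leaf lay below the other organs on all 3 arrays, with leaf replicate 3 closest to them. On the scaled signal the organ means of AT5TU036490 spanned 0.51, just past the limit of the rule. AT1TU040060 measured 9.74, 10.13 and 9.94 in inflorescence, 10.27, 9.96 and 10.49 in leaf, and 10.21, 10.02 and 10.35 in root, and its 3 organs overlapped.

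The range of the 3 organ means, the measure that chose the lincRNAs, ran from 0.039 to 0.499 with a median of 0.37 in the deposited table. It was under 0.25 for 21 lincRNAs and under 0.1 for 3. On the scaled scanner signal the median range was also 0.37, and the largest was 0.71, with 18 of the 103 lincRNAs at 0.5 or more. With arrays scaled by the median of all gene probes the median range was 0.77, above the limit of the rule. In the deposited table the organ with the highest mean was leaf for 56 lincRNAs, root for 31 and inflorescence for 16. This order moved with the scaling between arrays: leaf was highest for 22 lincRNAs when arrays were scaled by the 75th percentile of all gene probes, and for 0 when they were scaled by the median of all gene probes.

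AT4TU014480 had the smallest range of organ means, 0.039. Its values were 7.94, 8.00 and 8.56 in inflorescence, 7.87, 7.83 and 8.92 in leaf, and 8.08, 8.06 and 8.44 in root. Replicate 3 of every organ was higher than its replicates 1 and 2, and the organs overlapped. AT5TU061000 had a range of 0.076 and measured 7.49, 7.56 and 7.47 in inflorescence, 7.53, 7.68 and 7.53 in leaf, and 7.64, 7.61 and 7.46 in root. Its 9 arrays lay within 0.23 of each other and all organs overlapped. AT2TU029160, with a range of 0.11, measured 9.54, 9.52 and 9.46 in inflorescence, 9.52, 9.55 and 9.69 in leaf, and 9.63, 9.62 and 9.59 in root, within 0.24 over the 9 arrays.

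Not every lincRNA with nearly equal organ means was level from array to array. AT5TU035050 had a range of organ means of 0.098, yet its values were 6.76, 7.39 and 3.96 in inflorescence, 7.15, 6.96 and 4.15 in leaf, and 6.90, 6.88 and 4.18 in root. Replicate 3 of each organ was far below the other replicates, so that the 9 arrays spanned 3.43. AT5TU073650, with a range of organ means of 0.11, measured 8.74, 8.52 and 6.45 in inflorescence, 8.30, 8.22 and 7.01 in leaf, and 8.56, 8.37 and 6.93 in root. Again the 3 arrays of slide 2 were the lowest.

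At the threshold, the 5 lincRNAs just inside it were AT2TU038120 (range 0.499), AT1TU095780 (0.499), AT1TU076210 (0.499), AT4TU060830 (0.497) and AT3TU059370 (0.495). The 5 just outside were AT5TU090580 (0.504), AT5TU027710 (0.506), AT3TU037390 (0.511), AT1TU035780 (0.511) and AT2TU025260 (0.516). AT1TU076210 owed its place near the limit to 1 spot: it measured 9.96, 10.16 and 10.10 in inflorescence, 10.04, 8.76 and 9.94 in leaf, and 9.62, 9.84 and 9.92 in root. The spot of leaf replicate 2, the low value, was marked as an outlier by the scanner software and was left out of the fits, and without it the range on the scaled signal was 0.29.

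Equal organ means left room for spread between replicates. Over all 9 arrays, values of a lincRNA in the deposited table spanned 0.20 to 3.72, with a median of 1.04: 3 lincRNAs spanned less than 0.25, 12 less than 0.5, 50 less than 1 and 88 less than 2. The SD of replicates within organs, pooled over the 3 organs on the scaled signal, had a median of 0.42 and ran from 0.066 to 2.22. It was under 0.25 for 38 lincRNAs, and it was larger than the range of organ means for 59 of the 103. The rule capped that range, and the same held for 51 of the other 299 lincRNAs above background on all arrays, so this count is a description only. The median SD of those 299 was 0.36.

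**Figure D2:**
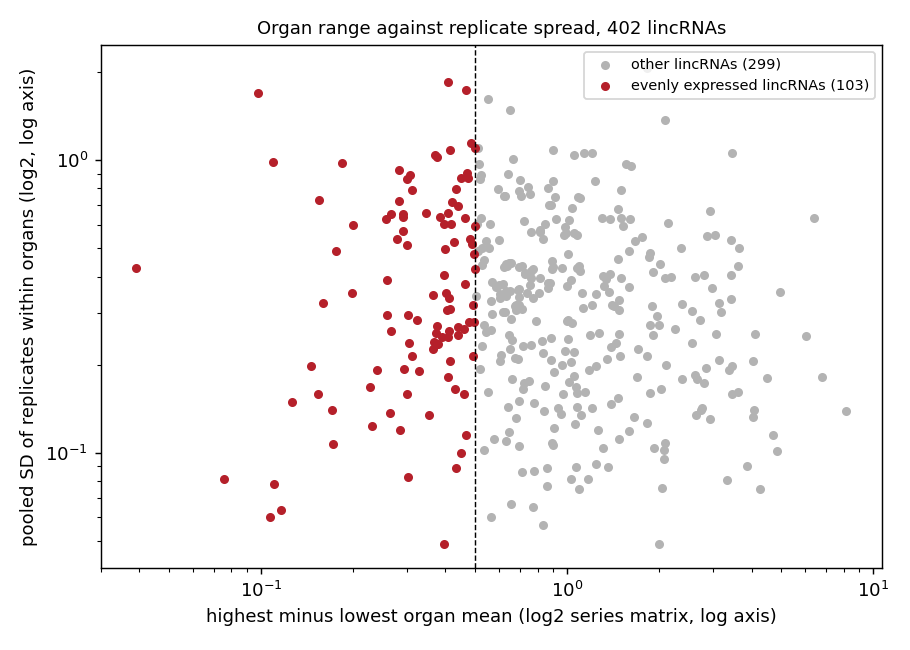
Range of the 3 organ means (x axis, log2 units of the deposited table, log axis) against the SD of replicates pooled within organs (y axis, same units, log axis) for 402 lincRNAs above background on all 9 arrays, each point 1 lincRNA and the dashed line the limit of 0.5. The 103 evenly expressed lincRNAs left of the line cover almost the same span of SD, 0.049 to 1.85 in the deposited table, as the others.

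The 4 lincRNAs with the smallest SD on the scaled signal were AT2TU019490 (0.066), AT2TU045590 (0.068), AT5TU074000 (0.071) and AT4TU002260 (0.071). AT2TU019490 measured 9.18, 9.09 and 9.09 in inflorescence, 9.02, 8.98 and 9.01 in leaf, and 9.04, 9.0 and 9.18 in root. Its 9 arrays lay within 0.20, the narrowest span of the 103, and only leaf and inflorescence did not overlap. AT5TU074000 measured 8.97, 8.99 and 8.88 in inflorescence, 8.49, 8.55 and 8.61 in leaf, and 8.79, 8.77 and 8.78 in root. These 3 organs did not overlap at all, with inflorescence highest and leaf lowest, although the 9 arrays spanned only 0.50. AT4TU002260 measured 4.84, 4.93 and 5.34 in inflorescence, 5.42, 5.22 and 5.95 in leaf, and 4.89, 5.07 and 5.49 in root. In the deposited table its replicate 3 was the highest of each organ, and it spanned 1.11. On the scaled signal the organ means of AT4TU002260 spanned 0.54, past the limit of the rule.

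The 4 lincRNAs with the largest SD were AT3TU019640 (2.22), AT5TU075340 (2.20), AT5TU035050 (2.17) and AT1TU095780 (1.76). AT3TU019640 measured 6.94, 6.58 and 4.04 in inflorescence, 6.53, 6.91 and 3.91 in leaf, and 7.36, 7.40 and 3.98 in root. AT5TU075340 measured 7.78, 7.64 and 4.72 in inflorescence, 7.67, 7.49 and 4.38 in leaf, and 8.10, 8.01 and 4.66 in root. In both, every array of slide 2 lay more than 2-fold below every array of slide 1, in all 3 organs. AT1TU095780 measured 4.93, 5.12 and 3.38 in inflorescence, 5.96, 5.26 and 3.70 in leaf, and 5.20, 5.26 and 3.22 in root, with the same split.

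**Figure D3:**
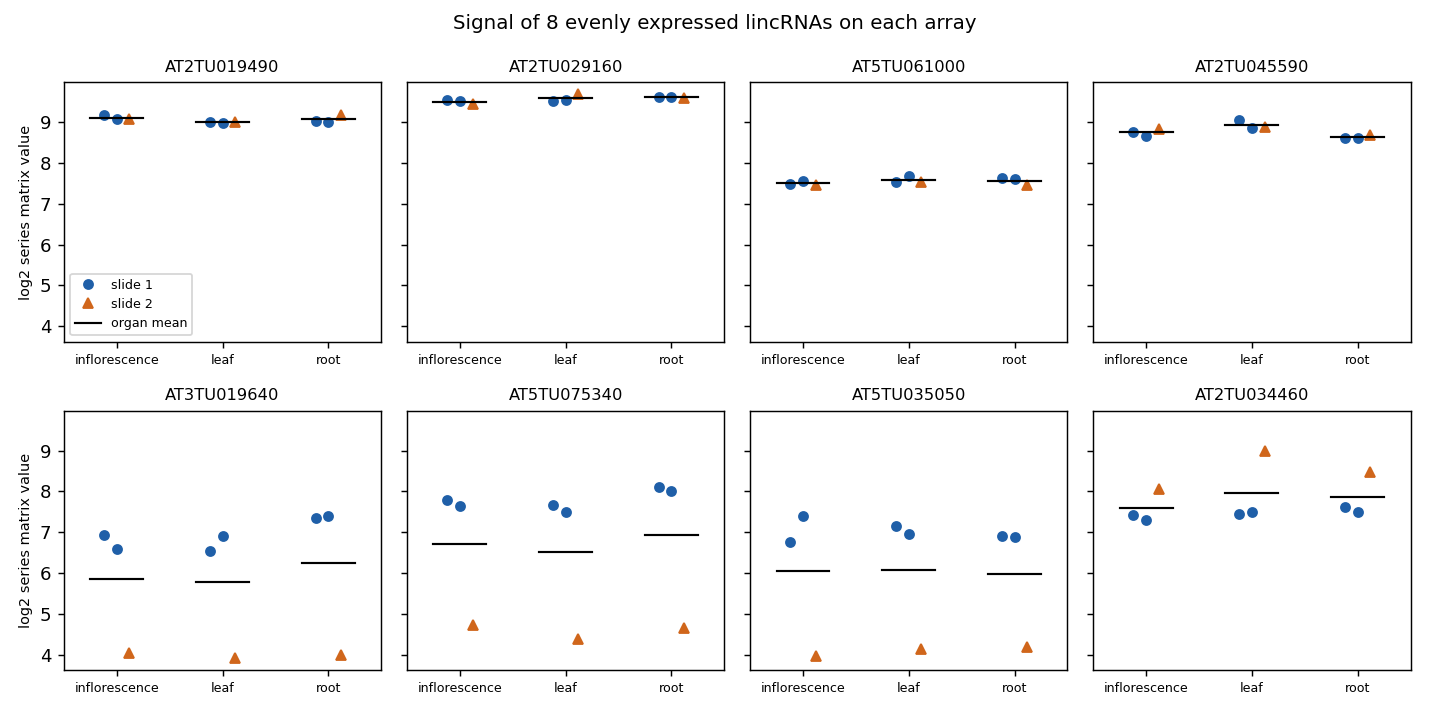
Log2 value in the deposited table (y axis) on each of 9 arrays, by organ (x axis), for 4 lincRNAs with small and 4 with large differences between arrays. Circles are arrays of slide 1, triangles arrays of slide 2 and bars organ means. The organ means are level in all 8 panels, while the triangles lie far below the circles for AT3TU019640, AT5TU075340 and AT5TU035050 and above them for AT2TU034460.

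Slide was not used to choose the lincRNAs, although detection on all 9 arrays was. The slide difference was tested over all 2116 genes above background on every array of at least 1 organ, with organ in the limma model. Slide 2 held only replicate 3 of each organ, so the test compares that replicate with the others as much as it compares slides. Of the 103 lincRNAs, 44 passed an adjusted p of 0.05 with at least 2-fold (all lower on slide 2), which is 42.7% against a background of 36.0% of all genes tested (35.4% lower on slide 2). The share was 44.2% of all 1614 lincRNAs tested and 26.8% of the other 299 lincRNAs above background on all arrays. How many lay lower or higher depended on the scaling. The median of slide 2 minus slide 1 over all genes tested was -0.69 on the scaled signal, 0.08 in the deposited table and also after quantile normalization, 0.85 and 0.93 when arrays were scaled by the 75th percentile or the median of all gene probes, and -0.31 after normexp background correction.

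The median slide difference of the 103 lincRNAs was -0.54, -0.29, -0.30, 0.99, 1.07 and -0.42 on the scaled signal, the deposited table, the quantile-normalized signal, the 75th percentile of all probes, the median of all probes and normexp, in that order. It lay 0.15 above the median of all genes tested on the scaled signal and 0.38 below it in the deposited table. Counts of calls turned with it: 51 lincRNAs were called higher and 7 lower on slide 2 with the 75th percentile of all probes (43.5% and 3.5% of all genes tested), 48 higher and 5 lower with the median (42.2% and 2.46%), and 2 higher and 31 lower in the deposited table (5.91% and 6.43%). Under each of these 6 scalings the members' median lay below that of the other 299 lincRNAs, by 0.17 to 0.27. The 6 are not separate readings of this gap. The scaled signal and the 75th percentile and median of all probes differ only by a constant per array, which barely moves the gap. Quantile normalization gave nearly the gap of the deposited table.

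Under 5 of the 6 scalings, all but normexp, the same 5 of the 103 lincRNAs were called lower on slide 2 by at least 2-fold: AT3TU019640, AT5TU075340, AT5TU035050, AT1TU095780 and AT5TU092730. None of the 103 was called higher under all 5, whereas of the other 299 lincRNAs above background on all arrays 3 were called lower and 5 higher. On the scaled signal AT3TU019640 was lower by 3.82 ± 0.16 (log2, SE; limma adjusted p = 3.9e-05), and its difference ran from -3.82 to -1.55 over the scalings. AT5TU075340 differed by -3.81 ± 0.11 (adjusted p = 1e-05 in limma) and kept a difference of -2.04 after normexp. AT5TU092730, which was picked out after its values were seen, measured 5.29, 5.46 and 3.39 in inflorescence, 5.86, 5.62 and 3.92 in leaf, and 5.59, 5.67 and 3.81 in root. Its slide difference was -2.94 ± 0.12 on the scaled signal, and in the deposited table all slide 2 arrays lay below all slide 1 arrays.

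Other lincRNAs were higher on slide 2. Under the same 5 scalings AT2TU034460, AT3TU052930, AT4TU014480 and AT5TU029600 were higher on slide 2 with an adjusted p under 0.05 in limma, with no limit on the fold. The same held for 25 of the other 299 lincRNAs, and the shares were not tested against each other. AT2TU034460 measured 7.42, 7.29 and 8.05 in inflorescence, 7.43, 7.50 and 8.98 in leaf, and 7.61, 7.48 and 8.47 in root, and was higher on slide 2 by 0.92 ± 0.17 on the scaled signal (limma adjusted p = 0.0037). Each slide 2 array lay above every slide 1 array. AT3TU052930 measured 5.30, 5.44 and 6.74 in inflorescence, 5.19, 5.31 and 5.82 in leaf, and 5.39, 5.44 and 6.71 in root. On the scaled signal it was higher by 0.73 ± 0.21 (limma adjusted p = 0.027), and leaf showed the smallest gap of the 3 organs in the deposited table. AT3TU054420 measured 9.46, 9.46 and 9.89 in inflorescence, 9.62, 9.49 and 9.85 in leaf, and 9.27, 9.81 and 10.32 in root. Its scaled difference of 0.48 ± 0.15 passed in limma (adjusted p = 0.032), whereas in the deposited table the adjusted p was 0.065.

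The sign of the slide difference was not the same in all organs for every lincRNA. On the scaled signal 65 of the 103 were lower and 8 higher on slide 2 in each of the 3 organs, and 51 were lower and 16 higher in the deposited table. The interaction of organ with slide passed an adjusted p of 0.05 in limma for 0 of the 103 lincRNAs and for 56 of the 2116 genes tested. At an unadjusted p under 0.05 it passed for 12 of the 103 (11.7%), against 401 of the 2116 genes tested (19.0%). It passed for 48 of the other 299 lincRNAs above background on all arrays (16.1%). The rule used organ means of the same arrays, and these shares were not tested against each other. The lowest adjusted p among the 103 was 0.087.

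Dim and bright lincRNAs differed in how level they were across slides, in a direction that turned with the scaling. On the scaled signal, 34 of 47 lincRNAs with a mean under 6 in the deposited table were called between slides (72.3%). So were 10 of 29 with a mean of 6 to 8 (34.5%) and 0 of 27 with a mean of 8 or more. In the other 299 lincRNAs these shares were 46.3%, 14.4% and 3.39%. The median SD within organs on the scaled signal was 0.94, 0.29 and 0.18 in the 3 classes of the evenly expressed lincRNAs. Median slide differences in the dim, middle and bright classes were -1.60, -0.31 and -0.01 on the scaled signal. They were 0.01, 1.31 and 1.58 with arrays scaled by the median of all probes, where the bright class was the least level across slides. The dim class was the lowest of the 3 under each of the 6 scalings, an order that scalings differing by a constant per array cannot change. Of all lincRNAs above background on 9 arrays, 25.7% of 183 dim, 21.8% of 133 middle and 31.4% of 86 bright ones met the rule.

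**Figure D4:**
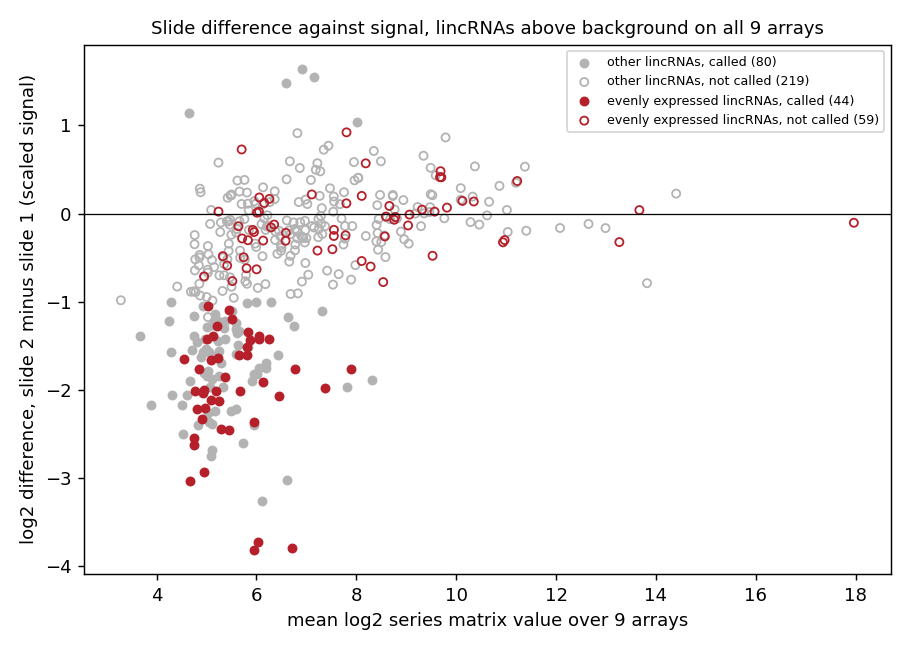
Slide 2 minus slide 1 (y axis, log2 difference of the scaled signal, organ in the model) against the mean log2 value in the deposited table (x axis) for 402 lincRNAs above background on all 9 arrays. Filled points passed the test between slides (44 evenly expressed and 80 other lincRNAs), open points did not, and the called evenly expressed lincRNAs all have a mean under 8 and lie below 0 on this scaling.

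The limit on the range was also applied to organ means of 1 slide and read on the other. All 9 arrays had still entered the choice of the 402 lincRNAs, of the probe for each and of the probes that set the scale, so only the range itself was separate. On the scaled signal 118 of the 402 lincRNAs had organ means within 0.5 on slide 1, with 2 arrays per organ. Of these, 39 (33.1%) were also within 0.5 on slide 2, with 1 array per organ, against 28 of the 284 (9.86%) that were not within 0.5 on slide 1. The median range on slide 2 was 0.65 in the first set and 1.26 in the second. Chosen on slide 2 instead, 39 of 67 lincRNAs (58.2%) were within 0.5 on slide 1, against 79 of 335 (23.6%). With arrays scaled by the median of all probes, the shares were 21.6% of 51 and 19.4% of 351 for the first direction. Of the 103 lincRNAs themselves, 83 were within 0.5 on slide 1 in the deposited table, 63 on slide 2 and 48 on both.

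**Figure D5:**
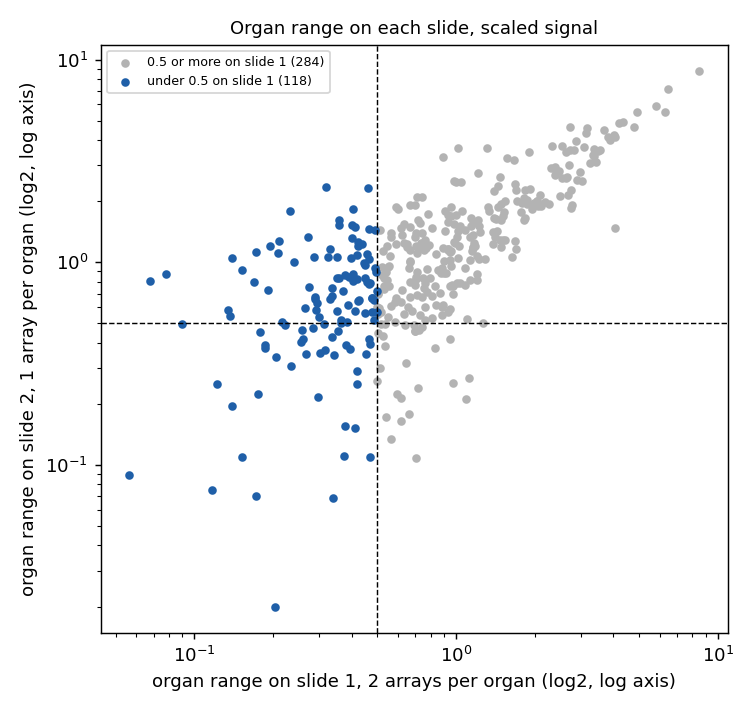
Range of organ means on slide 1 (x axis, 2 arrays per organ) against that on slide 2 (y axis, 1 array per organ), both in log2 units of the scaled signal on log axes, for 402 lincRNAs above background on all 9 arrays, with dashed lines at 0.5. Of the 118 blue points chosen on slide 1, 39 lie under the line on slide 2, and of the 284 grey points 28 do.

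The comparisons between organs were fitted over the same 2116 genes. With an adjusted p under 0.05 in limma and at least 2-fold, 0 of the 103 lincRNAs were called between root and leaf (23.9% of all genes tested), 0 between inflorescence and leaf (18.0%) and 0 between inflorescence and root (24.6%). At an unadjusted p under 0.05 there were 7, 6 and 1, and at an adjusted p under 0.05 with no limit on the fold 2 were called, both between inflorescence and leaf (23.6% of all genes tested). The rule fixed these counts, and nothing is read from them. Differences of the scaled signal ran from -0.40 to 0.59 for root minus leaf, from -0.71 to 0.56 for inflorescence minus leaf and from -0.57 to 0.40 for inflorescence minus root.

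The intervals of these differences are centred on values that the rule held small, so the counts that follow describe the width of the intervals and support nothing. The 95% intervals of all 3 organ differences lay inside 2-fold for 44 of the 103 lincRNAs, with a median half-width of 0.79, and for 161 of the 2116 genes tested (7.61%). With slide as a block the median half-width was 0.35 and 91 lincRNAs lay inside 2-fold (21.4% of all genes tested), and with the replicate number as a block 85 did (19.8%). With arrays scaled by the 75th percentile or the median of all gene probes, 2 and 0 did (0.567% and 0.0% of all genes tested). For the remaining 59 lincRNAs in the fit without a block, a 2-fold difference between organs lay within at least 1 interval. With slide as a block and no limit on the fold, a setting chosen after seeing the data, 10 lincRNAs differed between root and leaf (44.9% of all genes tested), 20 between inflorescence and leaf (42.3%) and 7 between inflorescence and root (44.6%), 29 lincRNAs in all, each by less than 2-fold.

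Other probes of the same lincRNA gave a second reading of the same samples. Most of the 103 (97) had 3 probes and 6 had 2, and of their 200 other probes 62 were above background on no array. On all 9 arrays, 18 other probes of 12 lincRNAs were above background. Organ means of 14 of the 18 (77.8%) lay within 0.5 in the deposited table, against 11 of 89 (12.4%) such probes of the other lincRNAs. The remaining 91 lincRNAs had no other probe above background on all 9 arrays, so by this filter their evenness rests on 1 probe. Some had other probes above background on 8 arrays. These went both ways in the deposited table, and most of them lay past the limit of 0.5. Ranges were 2.60 and 1.17 for AT3TU059370 and 0.62 and 1.43 for AT3TU056340, all past the limit. They were 0.13 and 0.23 for AT2TU057920, and 0.14 for AT5TU014120. These examples were picked after their values were seen. The exact share within 0.5 was not computed for such probes, nor for those of the other lincRNAs.

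AT2TU000020 had other probes with ranges of 0.25 and 0.35, and AT2TU045590 had ranges of 0.33 and 0.22. AT2TU045600 gave 0.11 and 0.21. AT5TU059430 gave 0.37 and AT2TU011000 gave 0.25, each with 1 other probe above background on all arrays. A further probe of AT2TU011000, above background on 8 arrays, had a range of 0.64. In these 5 lincRNAs each probe above background on all arrays met the limit. AT4TU002560 did not: its other probe above background on all arrays averaged 4.34 in inflorescence, 6.02 in leaf and 6.24 in root. The range of that probe was 1.90 against 0.38 for the probe that stood for the lincRNA. The other probe of AT5TU073650 above background on all arrays averaged 7.44, 8.23 and 7.50 in the same order, a range of 0.78 with leaf highest. For AT1TU069940, which measured 7.38, 7.05 and 7.50 in inflorescence, 6.76, 6.87 and 7.37 in leaf, and 7.04, 6.91 and 7.11 in root, the other probes had ranges of 0.25 and 0.74.

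The evenly expressed lincRNAs were spread over all 5 chromosomes. By the chromosome in the name, 20 lay on chromosome 1, 23 on chromosome 2, 14 on chromosome 3, 21 on chromosome 4 and 25 on chromosome 5. These were 19.2%, 26.4%, 21.9%, 32.3% and 30.5% of the lincRNAs above background on all 9 arrays on each chromosome. The running numbers follow position: among 930 lincRNAs whose probe names carry a start, 100% of neighbours by number had increasing starts, with a median of 279.9 bases per unit. No start is given here, since no source used here states the genome build behind the names.

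Of the 103 lincRNAs, 2 pairs lay within 50 units of each other, beside 37 pairs among all 402 lincRNAs above background on all 9 arrays. Nothing is read from this count. One of the 2 pairs was AT2TU045590 and AT2TU045600, 10 units apart. AT2TU045590 measured 8.76, 8.67 and 8.84 in inflorescence, 9.07, 8.87 and 8.89 in leaf, and 8.63, 8.61 and 8.69 in root. AT2TU045600 measured 7.52, 7.66 and 7.38 in inflorescence, 7.55, 7.52 and 7.15 in leaf, and 7.74, 7.78 and 7.41 in root. The organ order differed, leaf being highest in the first and root in the second, and replicate 3 was the lowest of each organ only in the second. The other pair was AT2TU010970 and AT2TU011000, 30 units apart. These pairs were named after their values were seen.

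The same rule was applied to the other classes of genes on the array. Among genes above background on all 9 arrays, it was met by 103 of 402 lincRNAs (25.6%), 31 of 189 annotated non-coding loci (16.4%), 4 of 29 microRNA precursors (13.8%) and 3 of 69 protein-coding genes (4.35%). These classes were chosen for the array in different ways, and the shares were not tested against each other. The 3 protein-coding genes were MEE22, DRB2 and DRB4, the last of which encodes a double-stranded RNA binding partner of DCL4. The 4 precursors were MIR860, MIR834, MIR413 and MIR159a, and miR159 is known to repress GAMYB-like transcription factors.

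The small RNA pathways act on many intergenic transcripts. Of 18 such gene symbols looked up, 8 were on the array, all 8 were above background on 9 arrays and 1 met the rule. HST was matched to AT3G11945, a locus not checked to be the small RNA gene of that symbol. The absence of that gene was therefore not established. DRB4 measured 10.79, 10.85 and 10.99 in inflorescence, 10.44, 10.37 and 10.55 in leaf, and 10.82, 10.70 and 10.89 in root. Leaf lay below both other organs on each array. The other 7 had ranges of organ means from 0.61 for DCL4, a Dicer-like enzyme that cuts long double-stranded RNA, to 1.75 for DCL3, the Dicer-like enzyme of the small RNAs that direct DNA methylation. In between, the largest subunits of the plant RNA polymerases that serve this pathway had ranges of 1.47 (NRPD1) and 1.65 (NRPE1). All 8 genes, DRB4 among them, averaged lowest in leaf. Of 12 known long non-coding RNAs looked for, TAS4, a precursor of trans-acting small RNAs, was the 1 found on the array. It was above background on 8 arrays, all but leaf replicate 2, with a range of 1.96, or 1.06 without that array. ASCO, APOLO and ELENA1 among the 12 matched no locus, so their absence was not established.

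Organ-preferential lincRNAs, those called higher in 1 organ than in each other organ, were at the opposite end. There were 58 in inflorescence, 66 in leaf and 127 in root, of which 9, 36 and 16 were above background on all 9 arrays. Their median slide differences on the scaled signal were -0.53, -0.20 and -0.44 over the whole sets and -0.19, -0.15 and -0.10 over those above background on all 9 arrays, beside -0.54 for the evenly expressed lincRNAs. These values were not tested between the sets.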

How the data were processed

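Total RNA of inflorescence, leaf and root was measured on 9 one-colour Agilent arrays. Groups and replicate numbers were taken from the sample titles. Col-0 is the ecotype of the growth protocol, since the ecotype field carries a running number that was ignored. Nothing beyond the wording of biological replicates says how plants were pooled. Per the file headers, the deposited spot intensity (processed signal, linear) was extracted and background-corrected under protocol GE1_105_Dec08 of Agilent Feature Extraction 10.5.1.1, with no scaling between arrays. The authors also deposited a table of log2 signals of the series. Each of its columns had a median of 1.41 and nearly the same quartiles, and its correlation with the array's own log2 processed signal was 0.966 to 0.998. Its values are signals that were not centred per gene, so no direction enters. No source used here gives its scaling and normalization.

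The evenly expressed lincRNAs were chosen on the deposited table. The members and lists were chosen with earlier results of these data known. For the fits, each array's log2 processed signals were lowered by their 75th percentile over the 1345 probes well above background on all 9 arrays. The brightest probe stood for a gene, with 1 spot per probe. In all, 15013 gene probes were read, 0 gene spots were saturated, and 71 spots marked as outliers were left out, 1 of them of an evenly expressed lincRNA. A gene was tested if some organ had it well above background on each of its 3 arrays, which held for 2116 genes, and all 103 evenly expressed lincRNAs passed. The fits used limma 3.58.1 in R 4.3.3, with Benjamini-Hochberg adjustment over all genes tested and calls needed 2-fold or more with an adjusted p under 0.05. Intervals are 95% intervals of limma. Tables were made with Python 3.11.15. The fits were tested on simulated data. The number of arrays limits the precision.

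Replicate numbers were checked for pairing. Deviations from the organ means correlated at 0.566 to 0.866 between arrays with the same number. Pairs of different numbers that were both on slide 1 correlated at 0.630 to 0.741. Pairing by number therefore cannot be told apart from sharing a slide, and the number was used as a block only as an alternative. Slide is the slide recorded in the file headers. The alternatives were the deposited table, the 75th percentile or the median over all gene probes, quantile normalization, normexp background correction (offset 50, on the median spot and background signals, in place of the mean signal that was planned), filters on dim probes, slide or replicate number as a block, 1 slide alone and leaving out each array.

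The text names the 8 brightest, the 5 with the smallest range, the 5 just inside and 5 just outside the limit, the 4 with the smallest and 4 with the largest replicate SD, the 4 with the largest slide difference in each direction, the 4 whose other probes differed most and the brightest on each chromosome.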

Additional observations from a re-analysis of the deposited data

How the results depend on the processing

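The number of evenly expressed lincRNAs, 103, followed the limit and the detection filter. It was 21 with a range under 0.25, 245 with a range under 1, 157 with the mean of all probes (68 of them among the 103) and 304 when leaf replicate 2 was not required to be above background. Leaving out each array in turn gave 76 to 328, the highest without leaf replicate 2 (85 of the 103 among them). It was 94 on the scaled signal (85 of them among the 103), 107 with slide 1 and 85 with slide 2. Calls between organs stayed at 0 under every scaling, filter, block and left-out array with at least 2-fold. Without the limit on the fold there were 2 between inflorescence and leaf (AT2TU032980 and AT4TU002260), and with slide as a block as well 10, 20 and 7 between root and leaf, inflorescence and leaf, and inflorescence and root. Calls between slides, 44, became 58 and 53, mostly higher in place of lower, with the 75th percentile and the median of all probes, and 2 with normexp, with 43 to 45 when arrays were left out. Those lower on slide 2 were then 7, 5 and 2, and the median slide difference was 0.99 and 1.07 in place of -0.54 with the first 2. Counts of lincRNAs with all organ intervals inside 2-fold, 44, were 2 and 0 with the 75th percentile and the median of all probes, 91 with slide as a block, 85 with the replicate block and 85 with slide 1 alone, and 35 to 41 when arrays were left out. Replicate number as a block changed no other call, and the slide test was not run with the replicate block, in which slide is nested. The median SD rose from 0.42 to 0.87 with the median of all probes, which also left 3 in place of 13 even other probes (scaled signal). LincRNAs even on both slides, 39 of 118, were 62 of 145 and 11 of 51 with the 75th percentile and the median of all probes. The median range of organ means, 0.37, was 0.77 with the median of all probes and 0.34 to 0.50 with arrays left out, and the median SD was then 0.36 to 0.46. The causes were not tested. Leaf replicate 2, with the fewest probes above background, limits which dim lincRNAs could enter.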

Other observations

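Among loci that are no lincRNAs, the rule also picked out annotated non-coding loci with very level signals. AT3G52072 had a range of organ means of 0.078 and AT2G42247 one of 0.096 in the deposited table. AT2G09795 had an SD within organs of 0.027 on the scaled signal, below the 0.066 of the steadiest evenly expressed lincRNA, and AT3G07215 and AT5G54569 had SDs of 0.035 and 0.039. The brightest was AT1G26558, with a mean of 13.97 and a range of 0.30. These loci were named after their values were seen.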
